A study of Mus musculus with 7 samples.

Results

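Accessible chromatin was examined at 5 progenitor cytokine receptor genes, Flt3, Kit, Csf1r, Csf2rb and Csf3r, in mouse B-lineage cells by ATAC-seq, with 7 libraries. Peaks were taken when they overlapped a gene body or the 20 kb on either side of it. This gave 338 of the 647973 peaks in the 7 lists, and after merging of overlapping peaks 74 of 145247 regions. In this assay fragments are cut from DNA that is not tightly packed, and peaks are places where they accumulate over the level of the genome as a whole. WT cells carried Ergfl/fl without Cre and were sorted at 3 consecutive steps of early B lymphopoiesis, named pre-proB, proB and preB. Erg is a transcription factor of the ETS family. Erg KO pre-proB cells were Rag1CreT/+;ErgΔ/Δ, and Rescue pre-proB, proB and preB cells carried this same deletion together with IgHVH10tar, a heavy chain allele that is already rearranged. Rag1Cre acts in the lymphoid lineage from the common lymphoid progenitor onwards, so deletion in each sorted cell depends on that driver. The study used mice of a C57BL/6J background, gave 1 age range for all of them, and gave no number of animals behind a library.

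A group consisted of 1 library, which leaves the variation among mice unknown, and no difference between libraries was tested. Stages of the Rescue libraries follow their titles, which the source names contradict for all 3 of them. Values are summit folds, the height of a peak over the background of its own library, and their 95% Poisson intervals cover counting error only. The background pileup, a measure of relative depth, was between 3.49 and 4.60 fragments. The lowest fold called as a peak ranged over the libraries from 2.32 to 2.63, and regions with no peak can still be open up to about that level. In these bulk samples, fewer cells with an open site and a less open site in every cell cannot be told apart. Where values of a series are listed, they run from pre-proB to proB to preB, and Erg KO stands for its only library, pre-proB. A promoter peak is one within 1000 bp of an annotated transcription start site, and it shows access to DNA, not expression.

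Flt3, Kit and Csf1r are related receptor tyrosine kinases. Flt3 binds Flt3 ligand and is needed for the expansion of lymphoid progenitors, Kit binds stem cell factor and is carried by stem cells and early B-cell progenitors, and Csf1r binds macrophage colony-stimulating factor and interleukin-34. Csf2rb is the signalling subunit shared by the receptors for interleukin-3, interleukin-5 and granulocyte-macrophage colony-stimulating factor, and Csf3r is the receptor for granulocyte colony-stimulating factor. These last receptors lack a kinase domain and signal through Jak kinases. As background, B-cell commitment by Pax5 is known to go with repression of Flt3 and Csf1r.

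The DNA of the regions that carried the largest stage differences is shown as 300 bases around the summit, read from the plus strand of GRCm38. For Flt3, Kit, Csf2rb and Csf3r, it is the region outside promoters with the largest ratio of WT pre-proB to WT proB among those with a fold of at least 10 in WT pre-proB. Kit regions 5 and 10 are added because their stage change differed in direction between WT and Rescue. Regions are numbered along the chromosome within each gene. Capitals mark matches to the motifs described next.
Flt3 region 14, chr5:147354254-147354553: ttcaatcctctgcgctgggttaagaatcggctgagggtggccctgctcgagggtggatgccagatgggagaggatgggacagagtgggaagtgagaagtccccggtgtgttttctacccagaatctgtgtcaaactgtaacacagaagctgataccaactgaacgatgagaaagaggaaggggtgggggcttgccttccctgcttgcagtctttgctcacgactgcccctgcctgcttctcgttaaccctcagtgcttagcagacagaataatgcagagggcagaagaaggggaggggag
Kit region 5, chr5:75604524-75604823: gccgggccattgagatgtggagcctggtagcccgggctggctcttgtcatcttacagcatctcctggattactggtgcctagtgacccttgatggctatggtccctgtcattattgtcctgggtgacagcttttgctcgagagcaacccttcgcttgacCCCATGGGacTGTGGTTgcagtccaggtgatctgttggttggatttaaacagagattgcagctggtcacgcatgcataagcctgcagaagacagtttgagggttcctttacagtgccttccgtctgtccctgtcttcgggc
Kit region 8, chr5:75640716-75641015: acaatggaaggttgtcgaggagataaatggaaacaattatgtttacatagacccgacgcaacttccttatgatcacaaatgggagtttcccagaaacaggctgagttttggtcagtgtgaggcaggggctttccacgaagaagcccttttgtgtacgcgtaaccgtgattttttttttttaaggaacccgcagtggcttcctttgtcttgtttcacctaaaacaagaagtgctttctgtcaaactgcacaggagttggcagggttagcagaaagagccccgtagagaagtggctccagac
Kit region 10, chr5:75671143-75671442: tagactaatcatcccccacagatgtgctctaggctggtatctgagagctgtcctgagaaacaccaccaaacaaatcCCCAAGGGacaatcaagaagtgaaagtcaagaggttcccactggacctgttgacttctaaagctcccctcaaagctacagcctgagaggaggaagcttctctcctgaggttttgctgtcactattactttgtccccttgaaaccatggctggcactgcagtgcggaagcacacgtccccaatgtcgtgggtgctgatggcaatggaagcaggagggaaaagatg
Csf2rb region 7, chr15:78333030-78333329: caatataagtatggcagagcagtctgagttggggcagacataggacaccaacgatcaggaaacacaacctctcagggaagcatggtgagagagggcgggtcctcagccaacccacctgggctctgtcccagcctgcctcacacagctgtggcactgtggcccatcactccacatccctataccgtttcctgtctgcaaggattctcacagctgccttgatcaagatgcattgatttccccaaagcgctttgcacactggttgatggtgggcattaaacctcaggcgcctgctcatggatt
Csf3r region 3, chr4:126030783-126031082: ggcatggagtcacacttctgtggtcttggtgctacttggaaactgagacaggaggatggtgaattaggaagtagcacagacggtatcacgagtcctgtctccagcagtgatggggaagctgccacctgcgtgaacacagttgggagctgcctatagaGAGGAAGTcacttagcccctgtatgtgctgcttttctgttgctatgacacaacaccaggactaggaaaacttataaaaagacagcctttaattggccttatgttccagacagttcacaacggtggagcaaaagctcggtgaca

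The motifs searched, on both strands, were CNGGAAGT for ETS factors, GAGGAAGT for PU.1, TGTGGTT for RUNX, CCCNNGGG for EBF, TTGCNNAA for C/EBP and AGATAAG for GATA factors. The ETS and PU.1 strings share their last letters but differ in the first, so a site on 1 strand counts for only 1 of them. Csf3r region 3 held PU.1 at position 158, Kit region 5 held EBF at 160 and RUNX at 170, and Kit region 10 held EBF at 77. Flt3 region 14, Kit region 8 and Csf2rb region 7 held none of these strings. Over the 74 regions, PU.1 was found in 11 (14.9%, Wilson interval 8.51 to 24.7) against 8.52% of all merged regions. The ETS string was found in 3 of the 74 (4.05%, 1.39 to 11.3) against 9.81%, and GATA in 0 of 74, which allows up to 4.93%, against 3.34%. EBF was found in 18.9% (11.6 to 29.3) against 12.2%, C/EBP in 16.2% (9.53 to 26.2) against 11.8%, and RUNX in 9.46% (4.66 to 18.3) against 13.5%. For every motif the interval included the share over all merged regions, at PU.1 only just. These are matches of letters and not evidence of binding.

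Peaks at the receptor genes were most numerous in the pre-proB libraries, whose lists are also the longest, with 95662 to 105649 peaks against 76465 to 91668 in the others. Across the WT series the windows held 59, 44 and 36 peaks. Erg KO held 57, and the Rescue series 62, 41 and 39. With each list cut to its 76465 highest-scoring peaks, the numbers were 44, 38 and 36 across the WT series, 43 with Erg KO, and 44, 33 and 36 across the Rescue series. In the full lists Csf3r had 6 peaks in each pre-proB library and 3 or 4 in the others, Csf2rb had 7 to 10 against 3 to 5, and Csf1r 8 to 10 against 5 or 6. Kit had 7 or 8 in the pre-proB libraries, 7 in WT proB, 3 in Rescue proB and 2 in both preB libraries. Flt3 had 28 or 29 in the pre-proB libraries and 22 to 24 in the others, but with lists of equal length this order did not hold, with 17 or 18 against 18 to 22. Of the 74 regions, 16 had a peak in the 3 pre-proB libraries and in no other, which is 21.6% (Wilson interval 13.8 to 32.3) against 11.5% of all merged regions. They were 5 at Flt3, 3 at Kit, 4 at Csf1r, 2 at Csf2rb and 2 at Csf3r. The shares of 21.6% and 11.5% both include promoter regions, and shares outside promoters are not given for this pattern. The interval treats regions as independent, which neighbours at a gene may not be. With lists of equal length, a choice made after seeing the data, 13 of 63 regions had this pattern (20.6%, 12.5 to 32.2) against 10.1%. A further 24 regions had a peak in all 7 libraries, 32.4% against a background of 32.0%, and 14 of these were at Flt3. The pattern of a peak in the 4 proB and preB libraries alone was seen in 3 regions, 4.05% against 5.19%.

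**Figure D1:**
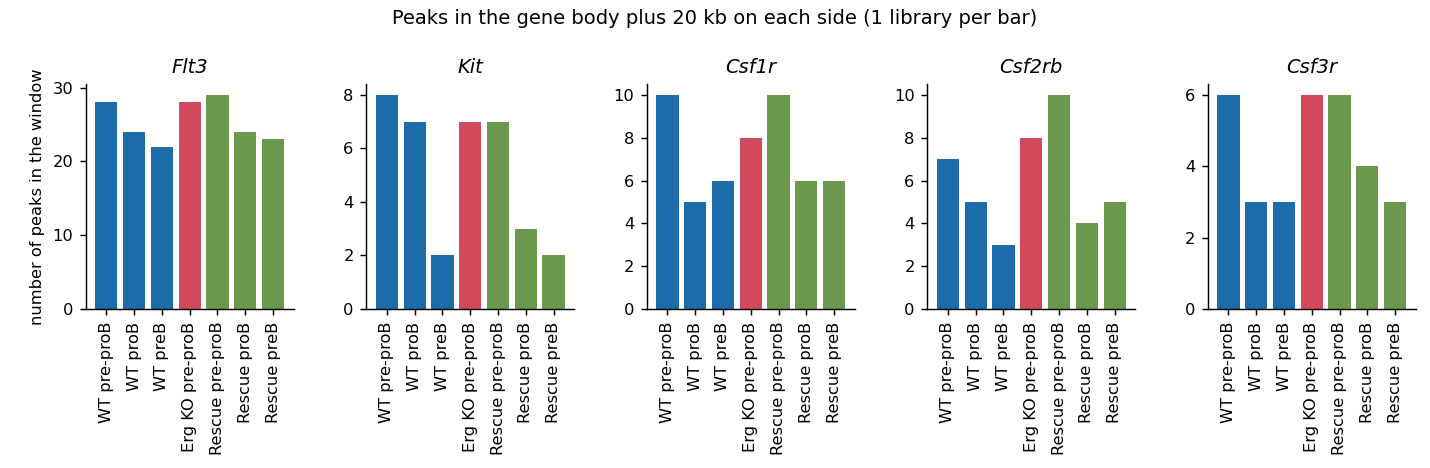
Number of peaks in the gene body plus 20 kb on each side for the 5 receptor genes, with 1 bar per library (blue WT, red Erg KO, green Rescue). Kit had 8, 7 and 2 peaks across the WT series, and Csf3r had 6 peaks in each of the 3 pre-proB libraries.

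**Figure D2:**
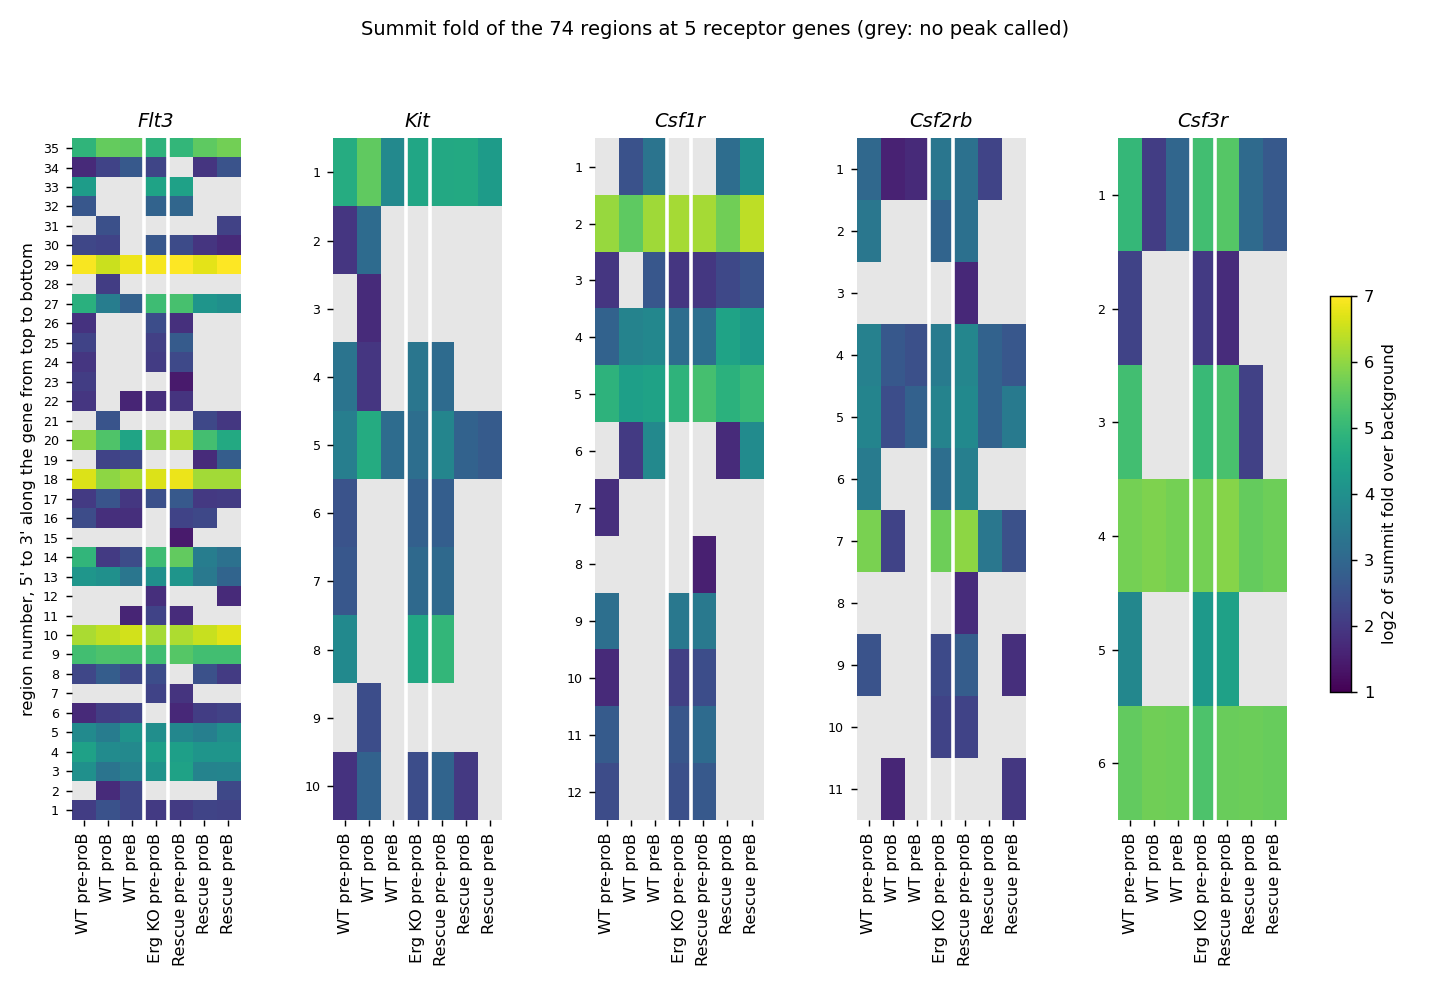
Summit fold, on a log2 colour scale, of each of the 74 regions (rows, numbered within each gene and ordered 5′ to 3′) in the 7 libraries (columns), with grey for no called peak. Rows coloured only in WT, Erg KO and Rescue pre-proB are the 16 regions with a peak in those libraries alone.

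From WT pre-proB to WT proB, 25 of 59 peaks at the receptor genes had no counterpart (42.4%, Wilson interval 30.6 to 55.1), beside 34.1% of the whole WT pre-proB list. Outside promoters this was 22 of 46 (47.8%, 34.1 to 61.9) beside 40.2%. In the other direction 10 of 44 WT proB peaks were absent from WT pre-proB (22.7%, 12.8 to 37.0), beside 31.9% of the list, and outside promoters 9 of 34 (26.5%, 14.6 to 43.1) beside 36.6%. Each of these intervals included the value of its whole list. With lists of equal length the share of WT proB peaks absent from WT pre-proB was 36.8%, beside 33.7% of the list, so that its place below the list did not hold. Of 34 regions with a peak in both libraries, 7 had a WT proB fold of at most 1 in 2 of that in WT pre-proB, beside 16.0% of all shared regions, and 3 had at least 2 times that fold, beside 13.8%. The 7 lower regions were Flt3 regions 14 and 27, Kit region 4, Csf2rb regions 1, 5 and 7, and Csf3r region 1. The 3 higher regions were all at Kit, regions 2, 5 and 10. At Kit region 10 the counting intervals of WT pre-proB and WT proB overlapped.

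From WT proB to WT preB, 11 of 44 peaks were absent (25.0%, 14.6 to 39.4), beside 26.7% of the list, and 5 of these 11 were at Kit. In return 3 of 36 WT preB peaks had no WT proB peak (8.33%, 2.87 to 21.8), beside 10.7%. Of 33 shared regions, the Kit promoter and Kit region 5 had at most 1 in 2 of the WT proB fold in WT preB, beside 8.53% of all shared regions. Csf1r region 6 alone had at least 2 times the fold, beside 5.18%.

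Flt3 (ENSMUSG00000042817, chromosome 5, 147330741 to 147400489, minus strand) kept an open promoter at every stage while several intronic regions were lower after the pre-proB stage. The promoter, region 29, had a fold of 123, 91.6 and 115 across the WT series, 120 with Erg KO, and 129, 107 and 130 across the Rescue series. It exceeded at least 97.3% of the peaks in each list. The same window holds the start of Gm26597, an antisense transcript, and ATAC-seq cannot assign the peak to either strand. Region 14, in intron 15 (147354107 to 147354721), had a fold of 31.0, 4.06 and 5.26 across the WT series, 35.4 with Erg KO, and 47.4, 11.6 and 9.49 across the Rescue series. The 3 pre-proB libraries were all higher than the 4 others, and the WT difference from pre-proB to proB was 7.64-fold, with counting intervals of 26.4 to 36.2 and 2.58 to 6.11.

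Region 27 of Flt3, in intron 1 and 7.55 kb from the start site, had folds of 27.9, 11.6 and 7.23 in WT pre-proB, proB and preB, 35.2 in Erg KO, and 38.2, 17.4 and 15.9 in the Rescue libraries in the same stage order. Region 20, in intron 9, went from 61.3 in WT pre-proB to 40.6 in WT proB and 22.8 in WT preB, was 62.5 in Erg KO, and went from 77.4 to 37.0 and 25.0 in Rescue. Both regions were lower at each later stage in WT and in Rescue. At region 27, however, the counting intervals of proB and preB overlapped in both series. They were 8.96 to 14.9 and 5.02 to 10.1 in WT, and 13.8 to 21.7 and 12.6 to 19.8 in Rescue. Region 18, also in intron 9 and the most open Flt3 region outside the promoter in WT pre-proB, was 103, 62.8 and 73.4 in WT, 103 in Erg KO, and 114, 71.9 and 71.8 in Rescue. Its span was thus 1.63-fold between WT pre-proB and WT proB, far less than at region 14. Region 10, in intron 20, went the other way, with 75.2, 85.5 and 96.9 in WT, 73.7 in Erg KO, and 76.7, 90.9 and 106 in Rescue. The 3 pre-proB values were lower than the 4 others, but the counting intervals of WT pre-proB and WT proB overlapped, 67.9 to 83.1 and 77.9 to 93.6.

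Upstream of Flt3, region 33 had a peak in the pre-proB libraries only, with folds of 19.97 in WT, 22.4 in Erg KO and 21.4 in Rescue. It lies 9.58 kb from the start site inside Gm29793, a processed pseudogene, so reads from its parent gene could be placed there. The other 4 Flt3 regions with this pattern were regions 24, 25, 26 and 32, with folds between 3.57 and 7.86. Region 35, at the start of the long non-coding RNA D5Ertd605e, was 30.2, 47.6 and 45.8 in WT, 29.3 in Erg KO, and 31.6, 45.4 and 52.4 in Rescue, and so was lower in the pre-proB libraries than in the rest. Region 4, beyond the 3′ end of Flt3, had folds between 14.2 and 21.5 in the 7 libraries. Its edge came within 1000 bp of the start of the neighbouring gene Urad in 6 libraries, but not in WT proB.

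Kit (ENSMUSG00000005672, chromosome 5, 75574916 to 75656722, plus strand) differed from the other genes in being most open at its promoter in WT proB. The promoter had a fold of 26.2, 46.7 and 14.2 across the WT series, 23.3 with Erg KO, and 24.7, 25.2 and 19.6 across the Rescue series. WT proB stood above all 6 other libraries, with an interval of 41.1 to 52.8 against 20.8 to 30.2 in Rescue proB. Region 5, in intron 1 and 29.7 kb from the start site, followed the same order in WT, with 11.8, 25.8 and 8.77, and was 8.98 in Erg KO and 13.2, 7.35 and 6.60 in Rescue. Rescue proB was thus 3.52-fold below WT proB at this region. Region 2, in intron 1, had folds of 3.88 in WT pre-proB and 8.49 in WT proB and no peak in the other 5 libraries. Regions 3 and 9 had a peak in WT proB alone, with folds of 3.32 and 5.35. Of the 74 regions, 5 had a peak in WT proB and in no other proB or preB library, and 4 of these were at Kit. That share was 6.76% (Wilson interval 2.92 to 14.9) against 8.59% of all merged regions.

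Other Kit regions were open at the pre-proB stage. Region 8, in intron 11 (75640390 to 75641191), had folds of 14.3 in WT pre-proB, 24.2 in Erg KO and 31.3 in Rescue pre-proB and no peak in the proB and preB libraries. Its counting intervals were 11.3 to 17.99, 20.3 to 28.7 and 26.8 to 36.3, so both Erg-deficient libraries lay above WT by more than counting error. This region had the highest ratio to WT of the 51 regions shared with Erg KO and of the 52 shared with Rescue pre-proB. Both comparisons use the same WT library, and variation among mice is unknown. Regions 6 and 7, both in intron 7, had folds between 5.82 and 8.25 in the 3 pre-proB libraries and no peak elsewhere. Region 4, in intron 1, had folds of 9.89, 10.3 and 8.58 in WT, Erg KO and Rescue pre-proB, 3.88 in WT proB and no peak in the other 3 libraries. Region 10, beyond the 3′ end of the gene and 96.3 kb from its start site, had folds of 3.68 and 7.38 in WT pre-proB and proB, 5.31 in Erg KO, 7.68 in Rescue pre-proB and 4.01 in Rescue proB, and none in either preB library.

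**Figure D3:**
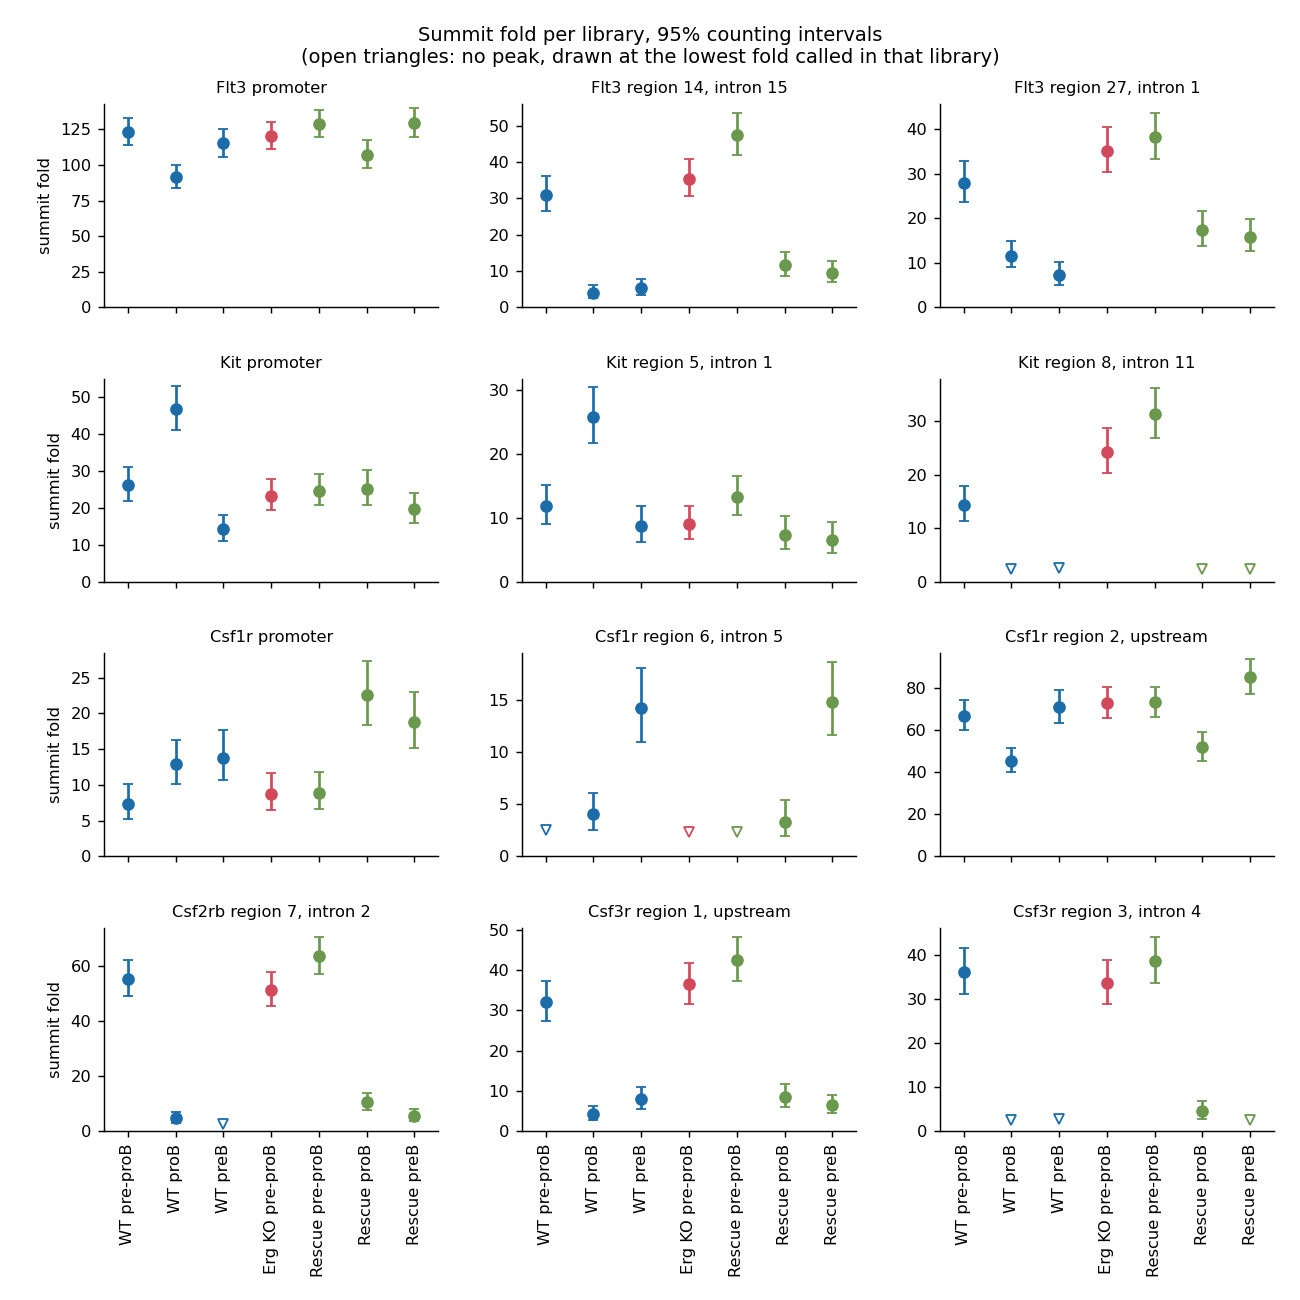
Summit fold of 12 regions in the 7 libraries (blue WT, red Erg KO, green Rescue), with bars for 95% Poisson counting intervals and open triangles at the lowest fold called where there was no peak. The Kit promoter and Kit region 5 are highest in WT proB, and Csf2rb region 7 and Csf3r regions 1 and 3 are highest in the 3 pre-proB libraries.

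Csf1r (ENSMUSG00000024621, chromosome 18, 61100598 to 61132149, plus strand) was the gene whose promoter was more open after the pre-proB stage. Region 4, the promoter, had a fold of 7.37, 12.9 and 13.8 across the WT series, 8.80 with Erg KO, and 8.94, 22.5 and 18.8 across the Rescue series. All 3 pre-proB libraries were lower than the 4 others. Region 6, in intron 5, had no peak in the pre-proB libraries and folds of 4.06 and 3.34 in WT and Rescue proB and 14.2 and 14.9 in WT and Rescue preB. Region 1, inside the neighbouring receptor gene Pdgfrb, also had no peak in the pre-proB libraries, with 5.72 and 8.91 in WT and Rescue proB and 9.86 and 16.1 in WT and Rescue preB. At both regions preB exceeded proB in WT and in Rescue.

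The most open Csf1r region, region 2, lies 13.5 kb upstream of the promoter. It had folds of 66.9, 45.4 and 70.8 in WT pre-proB, proB and preB, 72.9 in Erg KO, and 73.1, 51.9 and 85.2 in Rescue, so that proB was lowest in both series. Region 5, in intron 1 of the transcript used here, was 29.5, 20.9 and 21.9 in WT, 29.7 in Erg KO, and 37.5, 28.5 and 33.2 in Rescue. Regions 9 to 12, from intron 10 to the gene Hmgxb3 that overlaps the 3′ end, had peaks in the pre-proB libraries only. The highest was region 9, with 9.11 in WT, 10.6 in Erg KO and 10.7 in Rescue pre-proB.

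Csf2rb (ENSMUSG00000071713, chromosome 15, 78325752 to 78353847, plus strand) was much less open in proB than in pre-proB, with a fold summed over its window of 116, 22.3 and 16.0 across the WT series, 112 with Erg KO, and 140, 29.8 and 30.3 across the Rescue series. Region 7, in intron 2 (78332702 to 78333493), had a fold of 55.2, 4.62 and no peak across the WT series, 51.3 with Erg KO, and 63.6, 10.5 and 5.57 across the Rescue series. WT proB was 12.0-fold below WT pre-proB. The promoter, region 5, had folds of 13.0, 5.35 and 7.23 in WT, 12.8 in Erg KO, and 14.5, 7.35 and 11.1 in Rescue. Regions 2 and 6 had peaks in the pre-proB libraries only, with folds between 7.70 and 12.0. Region 1, at the promoter of the neighbouring gene Csf2rb2, was 8.14, 2.95 and 3.29 in WT, 10.3 in Erg KO, 9.47 and 4.68 in Rescue pre-proB and proB, and absent in Rescue preB. Csf2rb and Csf2rb2 are near-identical copies, and how reads matching both were placed was not found in the methods or labels, so levels at either gene are uncertain.

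Csf3r (ENSMUSG00000028859, chromosome 4, 126024550 to 126044440, plus strand) was the only one of the 5 genes without a promoter peak in some libraries. Its promoter region had folds of 4.65 in WT pre-proB, 4.03 in Erg KO and 3.40 in Rescue pre-proB, and no peak in the 4 proB and preB libraries. These folds are near the lowest called, so the promoter was weakly open even where it had a peak. Region 3, in intron 4 (126030542 to 126031295), had folds of 36.1 in WT pre-proB, 33.5 in Erg KO, 38.6 in Rescue pre-proB and 4.45 in Rescue proB, and no peak in WT proB, WT preB or Rescue preB. Against the lowest fold called in WT proB, WT pre-proB was at least 15.02-fold higher. Region 1, 5.41 kb upstream, was 32.0, 4.25 and 7.89 across the WT series, 36.5 with Erg KO, and 42.5, 8.46 and 6.40 across the Rescue series. Region 5, inside the neighbouring gene Mrps15, had folds of 13.8, 18.7 and 21.6 in WT, Erg KO and Rescue pre-proB and none elsewhere. By contrast regions 4 and 6, the promoters of Mrps15, a mitochondrial ribosomal protein gene, and of Oscp1, had peaks in all 7 libraries with folds between 39.9 and 60.6.

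**Figure D4:**
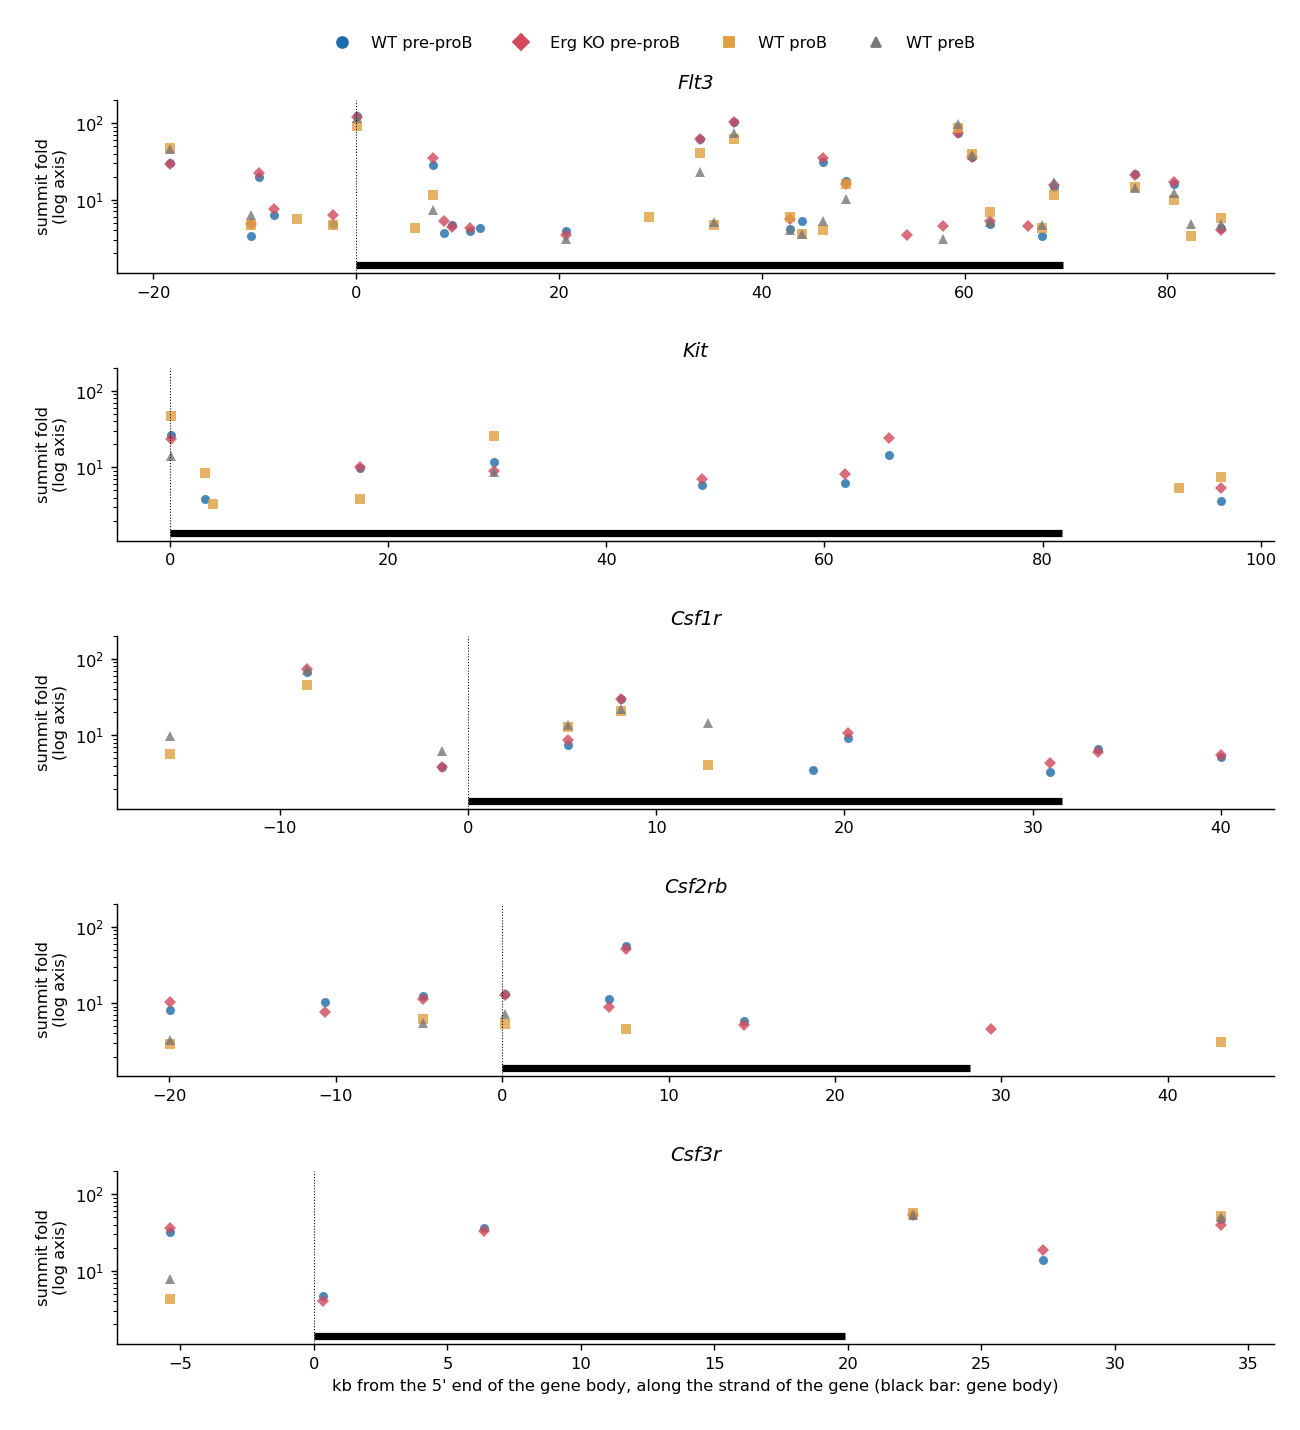
Summit fold (log axis) of each region against distance in kb from the 5′ end of the annotated gene body, along the strand of the gene, in the 3 WT libraries and Erg KO, with the gene body as a black bar. Blue circles and red diamonds overlap at most regions, while WT proB squares are absent or lower at Csf2rb region 7 and Csf3r region 1, and the Csf1r promoter lies inside the annotated body.

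Whether Erg deficiency altered accessibility at the pre-proB stage was asked by setting Erg KO against WT pre-proB. The receptor genes differed little between these libraries. Of 59 WT peaks, 5 had no Erg KO peak (8.47%, 3.67 to 18.4), beside 6.88% of the list, and of 57 Erg KO peaks 4 had no WT peak (7.02%, 2.76 to 16.7), beside 13.6%. The 5 were Flt3 regions 6, 16 and 23, Kit region 2 and Csf1r region 7, with WT folds between 3.30 and 5.23. The 4 were Flt3 regions 7, 11 and 12 and Csf2rb region 10, with Erg KO folds between 3.48 and 4.58. Of the 9, Flt3 region 16 had the highest fold, 5.23 in WT with a −log10 q of 11.2, and WT was at least 2.20-fold above Erg KO there. Rescue pre-proB, with the same deletion, had a fold of 4.65 at this region. Of 51 regions with a peak in both, 0 had at most 1 in 2 of the WT fold, beside 0.270% of all shared regions, and 0 had at least 2 times it, beside 0.280%. The ratios of Erg KO to WT ran from 0.735 to 1.69, with a median of 1.02 beside 1.04 over all shared regions, and the highest was Kit region 8.

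Rescue pre-proB, which carries the same deletion, was set against the same WT library, so these comparisons share their control. Of 59 WT peaks 5 had no Rescue pre-proB peak (8.47%), beside 5.88% of the list, and of 62 Rescue peaks 8 had no WT peak (12.9%, 6.69 to 23.4), beside 15.6%. Of 52 shared regions 0 had at most 1 in 2 of the WT fold, beside 0.275%, and 2 had at least 2 times it, beside 0.537%. These were Kit region 8 at 2.18 times and Kit region 10 at 2.09 times the WT fold. At Kit region 10 the counting intervals overlapped, up to 5.71 in WT pre-proB and from 5.59 in Rescue pre-proB. The median ratio was 1.12 at the receptor genes and 1.11 over all shared regions.

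**Figure D5:**
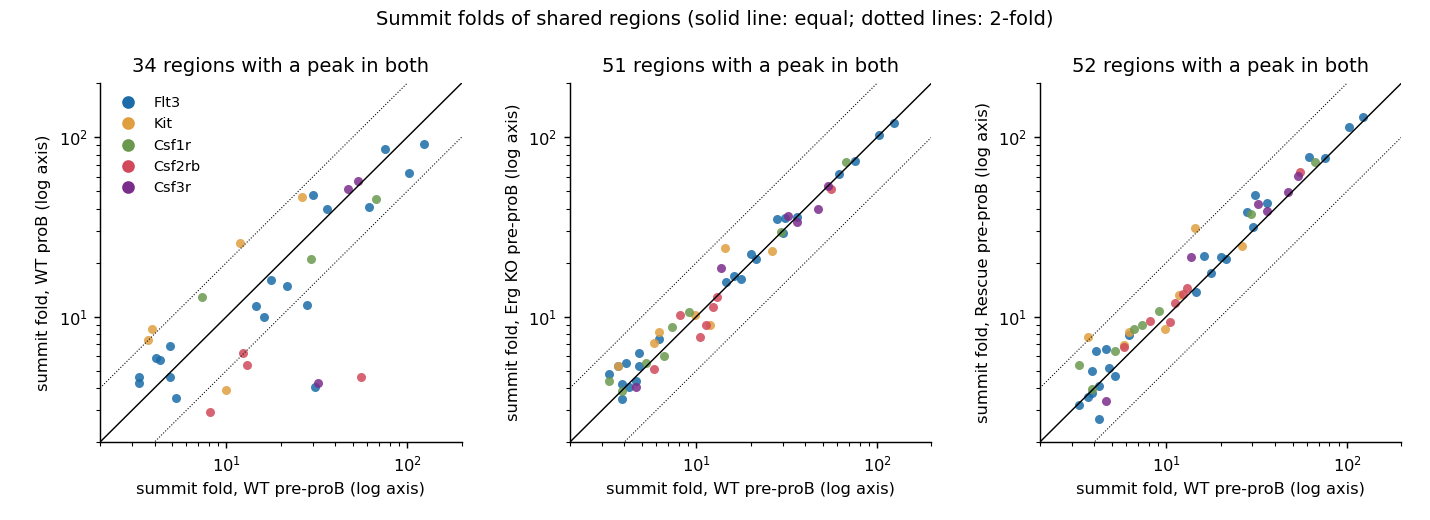
Summit fold in WT proB, Erg KO and Rescue pre-proB (y axes) against WT pre-proB (x axes), log axes, for the 34, 51 and 52 regions at the receptor genes with a peak in both libraries, coloured by gene. No region lies beyond the dotted 2-fold lines for Erg KO, 2 Kit regions lie above them for Rescue pre-proB, and 10 regions lie beyond them for WT proB.

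At the proB stage, 8 of 44 WT peaks had no Rescue peak (18.2%, 9.51 to 32.0), beside 20.6% of the list, and 4 of the 8 were at Kit. In the reverse direction 5 of 41 Rescue proB peaks had no WT peak (12.2%, 5.32 to 25.5), beside 19.8%. Of 36 shared regions, Kit region 5 had at most 1 in 2 of the WT fold in Rescue proB, beside 6.52% of all shared regions. Flt3 region 14 and Csf2rb region 7, at 2.85 and 2.27 times the WT fold, had at least 2 times it, beside 5.32%. At each of these regions Rescue proB lay between WT proB and the pre-proB libraries, except at Kit region 5, where it lay below both. At the preB stage, 4 of 36 WT peaks had no Rescue peak (11.1%, 4.41 to 25.3), beside 8.02%, and 7 of 39 Rescue preB peaks had no WT peak (17.9%, 8.98 to 32.7), beside 17.9%. Of 32 shared regions 0 had at most 1 in 2 of the WT fold, beside 0.885%, and Flt3 region 27, at 2.20 times, alone had at least 2 times it, beside 3.05%.

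Counted by promoter peak, 5 of the 5 receptor genes had one in each pre-proB library and 4 of the 5 in each proB and preB library. Over all coding genes the share with a promoter peak was 61.4% to 65.5%. Of 8 ligand genes, 3 to 5 had a promoter peak, and Flt3l, Kitl and Csf1 had one in all 7 libraries. Kitl, which encodes stem cell factor, had folds of 56.6, 16.2 and 8.99 in WT pre-proB, proB and preB, 56.3 in Erg KO, and 57.9, 22.3 and 13.8 in Rescue. Il34 had folds of 31.2, 35.0 and 46.3 in WT, Erg KO and Rescue pre-proB and 7.35 in Rescue proB, with no peak in the other 3. Csf1, by contrast, went from 26.0 in WT pre-proB to 49.3 in WT proB and 66.8 in WT preB. Of 18 related receptor genes 15 to 17 had a promoter peak. All 20 genes of Jak, Stat and adaptor signalling had one in every library.

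Of 13 transcription factor genes known to act at these receptor loci, 12 had a promoter peak in all 7 libraries. The exception was Pax5, with folds of 3.68, 28.1 and 40.3 across the WT series, no peak in Erg KO or Rescue pre-proB, and 29.8 and 45.8 at the later Rescue stages. The promoter of Spi1, which encodes PU.1, was 22.9, 68.1 and 97.5 in WT, 20.2 in Erg KO, and 23.6, 69.3 and 93.7 in Rescue. Cebpa, a factor of myeloid progenitors, went the other way in WT, from 59.3 to 23.3 and 14.03, and was 71.1 in Erg KO and 69.0, 35.4 and 34.7 in Rescue.

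Markers of cell types were counted in the same way. Of 10 B-lineage marker genes, 9, 10 and 10 carried a promoter peak across the WT series, 6 with Erg KO, and 7, 10 and 10 across the Rescue series. Their summed promoter fold was 186 to 199 in the pre-proB libraries and 448 to 545 in the others. Of 10 myeloid markers 3 to 5 had a promoter peak, with a summed fold of 48.9 to 63.4 in the pre-proB libraries and 15.8 to 24.9 in the others. Elane, Prtn3, Ctsg, Ly6g and S100a8, which mark granulocytes and their precursors, had no promoter peak in any library. Of 10 plasmacytoid dendritic cell markers 9 or 10 had one in each library, and their summed fold was 610 to 707 in the pre-proB libraries and 316 to 441 in the others. For NK and innate lymphoid markers the counts were 7 or 8 of 10 in the pre-proB libraries and 4 to 8 in the others, with summed folds of 243 to 286 and 168 to 217, and Ncr1 had no peak in any library. For T-cell markers the counts were 6 to 8 and 3 to 6, with summed folds of 155 to 178 and 111 to 183, and Cd3e and Zap70 had none. Of 10 stem and progenitor markers, which include Kit itself, 7 to 9 had a promoter peak, with summed folds of 206 to 235 in the pre-proB libraries and 151 to 280 in the others. Members of these lists did not all move as the sums. Among myeloid markers, Itgam had folds of 27.9, 4.06 and 5.26 across the WT series, while Lyz2 had 5.23 in WT pre-proB and 7.38 in WT proB. Among NK markers, Klrb1c and Klrd1 went from 39.5 and 77.9 in WT pre-proB to 5.54 and 28.6 in WT proB, while Tbx21, Eomes, Gzma, Prf1 and Id2 were higher in WT proB than in WT pre-proB. Spib, counted with the plasmacytoid dendritic markers, had folds of 48.1, 83.3 and 174 across the WT series. The summed folds of the myeloid, plasmacytoid dendritic and NK lists were higher in each pre-proB library than in the others, and their part in the receptor results was not tested.

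The coding genes most like each receptor gene were sought by Pearson r over the 7 libraries of log2(1 + summed fold) in the gene window, among 18471 genes. Clcn6, Ndufs1 and Orc4 were nearest to Flt3, and Ppm1l, Aqp3 and Gtf2h1 to Csf2rb. For Csf3r they were Dgke and Bri3bp, for Kit Ccdc149, Tanc1 and Fam209, and for Csf1r Tmc3, Lynx1 and Smc5. All of these had an r between 0.992 and 0.999, but an r of at least 0.9 was reached by 4263 genes for Flt3, 4270 for Csf2rb and 3714 for Csf3r. For Kit 610 genes and for Csf1r 559 genes reached it. Much of the summed fold at Csf3r came from regions 4 and 6, the promoters of Mrps15 and Oscp1. These had folds of 53.5 and 47.1 within a sum of 187 in WT pre-proB. In WT proB they had 56.9 and 51.7 within a sum of 113. The 7 points share the stage of the cells and the depth of the libraries, so the likeness describes the stage pattern and nothing more.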

How the data were processed

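Nuclei of sorted pre-proB, proB and preB populations were profiled by ATAC-seq. According to the study's methods and the labels, the authors aligned paired-end reads to mm10 with Bowtie2 and called peaks with MACS2 per library, without pooling. CASAVA 1.8.2 and Picard are also named in the submitters' processing notes, and other versions, duplicate handling and options were not found in the methods or labels. The methods name sonication and the labels name Tn5, and either affects which sites are released. The fold deposited by the authors is a ratio of summit pileup to background, each with a pseudocount of 1. The deposited −log10 p and −log10 q are those of the summit, and the deposited score is 10 times the −log10 q. Read totals were not used here. The step between folds gave each library's background pileup and, from it, summit pileups for 100% of peaks within 0.02 of a step.

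Windows were gene bodies plus 20 kb on each side in GENCODE M21, with coordinates of GRCm38 written from 1. Peaks overlapping by at least 1 bp were shared, and all lists were merged into regions. Introns are numbered in the principal transcript. Shares carry Wilson intervals at the 95% level, and overlap counting was tested on simulated data. With 1 library per group no test was run. Regions named are the promoters, the highest 3 per gene, and the 3 strongest per gene lost or gained between WT stages or with Erg deletion, and others described here were chosen after their values were seen. The receptor genes, lists and motifs were chosen with earlier results of these data known. Alternatives were shorter lists, a −log10 q minimum, reciprocal overlap, other flanks and promoter windows, and Rescue stages from source names, and region patterns with lists of equal length were added after seeing the data. Python 3.11.15 and scipy 1.17.1 were used. Levels at Csf1r are given without sequence. Some items are not reported here.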

Additional observations from a re-analysis of the deposited data

Results flagged for a closer look

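At 3 regions the stage change went one way in WT and the opposite way in Rescue by at least 1.5-fold each, and the difference was not tested. The share of all merged regions that meet the same rule is not given, so how unusual these 3 are is unknown. At Kit region 5, in intron 1, the ratio of proB to pre-proB was 2.19 in WT and 0.556 in Rescue. At Kit region 10, beyond the 3′ end of the gene, the same ratio was 2.005 in WT and 0.522 in Rescue, from folds between 3.68 and 7.68. The counting intervals of pre-proB and proB overlapped there in both series, so neither change exceeded counting error. In WT the pre-proB interval reached up to 5.71 and the proB interval began at 5.30. In Rescue the pre-proB interval began at 5.59 and the proB interval reached up to 6.29. At Flt3 region 31, 5.81 kb upstream, the ratio of preB to proB was at most 0.475 in WT, where WT preB had no peak, and at least 1.85 in Rescue, where Rescue proB had none. Its highest fold was 5.54, in WT proB, above 34.8% of the peaks in that list, whose lowest fold was 2.40. With Rescue stages read from the source names, the ratio of proB to pre-proB in Rescue was 2.003 at Kit region 5 and at least 3.10 at Kit region 10, the direction seen in WT. The direction in Rescue at both Kit regions therefore depends on which label is right.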

How the results depend on the processing

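Values are shares of peaks at the receptor genes without a peak in the other library, and counts of genes with a promoter peak. They moved outside their main intervals, or by over 1.5 times for promoter counts, in the following cases, and the cause was not tested except where the shorter lists leave fewer peaks. With reciprocal overlap of 50% of both peaks, 57.6% of WT pre-proB peaks lacked a WT proB peak and 43.2% of WT proB peaks lacked a WT pre-proB peak. With lists of 38232 peaks, 11.1% of WT proB peaks lacked a WT pre-proB peak and 11.1% a WT preB peak, 0% of Erg KO and 0% of Rescue pre-proB peaks lacked a WT pre-proB peak, 5.56% of WT proB peaks lacked a Rescue proB peak, and 3 of 5 genes had a promoter peak in the pre-proB libraries of WT, Erg KO and Rescue. Among peaks whose −log10 q was 10 or more, 2.56% of WT pre-proB peaks lacked an Erg KO peak and 2.56% a Rescue pre-proB peak, 0% of WT preB peaks lacked a Rescue preB peak, and 7.14% of Rescue preB peaks lacked a WT preB peak. With Rescue stages from source names, 45.8% of WT pre-proB peaks lacked a Rescue pre-proB peak and 50% of Rescue proB peaks lacked a WT proB peak. Lists cut to 76465 peaks, gene bodies alone and gene bodies plus 50 kb left all 12 shares within their main intervals, and promoter windows of 500 and 2500 bp left all 7 promoter counts within 1.5 times. At 76465 peaks 4 of these shares still moved by over 1.5 times: WT proB without WT pre-proB from 22.7% to 36.8%, WT preB without WT proB from 8.33% to 16.7%, Rescue pre-proB without WT pre-proB from 12.9% to 6.82%, and Rescue preB without WT preB from 17.9% to 11.1%. No paired analysis was possible because each group has 1 library and no test was run. Depth limits weak regions: a region without a peak could hold 10 to 12 fragments at its summit.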
